A study of Mus musculus with 16 samples.

Results

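The genes described here are 10 listed imprinted genes of the mouse, *H19*, *Igf2*, *Igf2r*, *Meg3*, *Dlk1*, *Cdkn1c*, *Grb10*, *Peg3*, *Plagl1* and *Mest*, among 50686 annotated genes with a read count. The list was built around *H19*, which had been selected on its higher counts in Cdk8-ko lines in earlier results from the same libraries. The values of *H19* between genotypes are therefore a description and carry no test. The other members were listed because they are imprinted, and no threshold was applied.

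An imprinted gene is transcribed mainly from the chromosome inherited from one parent, because a nearby control region carries a DNA methylation mark set in the egg or the sperm. Many of these genes act on fetal growth, often in pairs of opposed function such as the growth factor IGF2 and the receptor that clears it, and many are turned down after birth. In blood, several of them have been tied to the quiescence of hematopoietic stem cells.

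The study asked how loss of the kinase CDK8 compares with inhibition of its activity in leukemic cells. Bone marrow cells of C57BL/6N mice were transformed with the BCR-ABL1 p185 oncogene, and RNA was sequenced from 4 wild-type lines and 4 Cdk8-ko lines. Each line was derived individually and was sequenced after 48 h with 0.01% DMSO, the solvent control, and after 48 h with 1 µM of the CDK8/CDK19 inhibitor Senexin B. This gave 16 libraries in 4 groups of 4. The Cdk8-ko lines carry the *Cdk8*Δ/Δ*Vav–Cre* genotype, and the lines labelled wild-type are *Cdk8* fl/fl. *Vav-Cre* deletes a floxed gene in the blood-forming lineage, so the deletion preceded transformation in the Cdk8-ko lines, and a difference between genotypes is also a difference between separately transformed lines. Libraries held 13145876 to 18349425 counts. Levels are given as counts per 1000000 counts of the scaled library total (CPM), and per kilobase of exon where genes are compared with each other. The floor of 3 counts corresponded to 0.160 to 0.245 CPM in a library.

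*Cdk8* itself was counted over its whole gene and not over the deleted part alone. Its level was 64.8 ± 3.01 CPM in wild-type lines with DMSO and 44.3 ± 7.09 CPM in Cdk8-ko lines with DMSO (SD, n = 4 each), and the 2 groups did not overlap. With Senexin B the means were 64.3 ± 16.6 CPM and 47.4 ± 9.57 CPM (SD, n = 4 each), and Cdk8-ko line 2, at 61.6 CPM, lay above 3 of the 4 wild-type lines. Transcripts of the gene thus remained in the Cdk8-ko lines, and these counts check the labels only in part. The paper examined the protein by immunoblot in lines of both genotypes, and reports CDK8 as absent from Cdk8-ko cells taken back from recipient mice. The pro-B and pre-B markers fitted the B-lymphoid label, with 10 of 10 genes over the floor in every line and a summed level of 6176 to 9595 CPM per library, led by *Cd93*. Of the T- and NK-cell markers, none of 5 exceeded the floor in both libraries of any line. The stromal markers *Col3a1*, *Pdgfra* and *Lum* had 0 counts in every library, and the summed level of that list of 7 reached at most 2.20 CPM, carried by *Pdgfrb*. The 7 myeloid markers summed to 0.440 to 24.7 CPM with *Lyz2* as the most abundant, and *Elane* and *S100a8* had 0 counts. The erythroid list of 5 was carried by *Hbb-bt* (sums of 3.75 to 264.1 CPM), with *Hba-a1* at no more than 1 count. Among the endothelial markers *Pecam1* was present in all lines (sums of 48.6 to 496.4 CPM) and *Kdr* had 0 counts, and the stem cell list of 5 was led by *Kit*, with sums of 0.504 to 133.3 CPM and *Procr* at 0 counts. Of that list *Procr*, *Mecom* and *Hlf* were detected in no line, at 2 counts or fewer, and *Slamf1* reached at most 4.55 CPM. The high sums were thus carried by 1 gene, *Kit*, at up to 131.6 CPM. Cdk8-ko line 2 had 74.1 CPM of that list with DMSO and 133.3 CPM with Senexin B, against at most 22.5 CPM in the other lines. This line also stood apart for several genes described below, and any link of those values to *Kit* was not tested.

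Few of the 10 genes were expressed throughout. A gene was called expressed in a line where both of its libraries reached 1 CPM, and detected where both exceeded 3 counts. The receptor gene *Igf2r* and the adaptor gene *Grb10* were expressed in all 8 lines. A further 4 genes were expressed in some lines only. These were *H19* in the 4 Cdk8-ko lines, *Dlk1* in 7 lines, *Igf2* in Cdk8-ko line 1 and *Plagl1* in wild-type line 4. *Meg3*, *Cdkn1c*, *Peg3* and *Mest* were expressed in none. Counted by line, wild-type line 3 expressed the fewest members, 2, and Cdk8-ko line 1 the most, 5. The filter on low counts over all 16 libraries kept 6 members (*H19*, *Igf2r*, *Dlk1*, *Grb10*, *Plagl1* and *Mest*), and the fits used this filter within the libraries compared, so they cover part of the list. Values of the members outside it come from fits without the filter or of fewer lines, named as such. Reads were not assigned to a parental allele, and whether any of these genes was still imprinted in the lines was not analysed here.

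**Figure D1:**
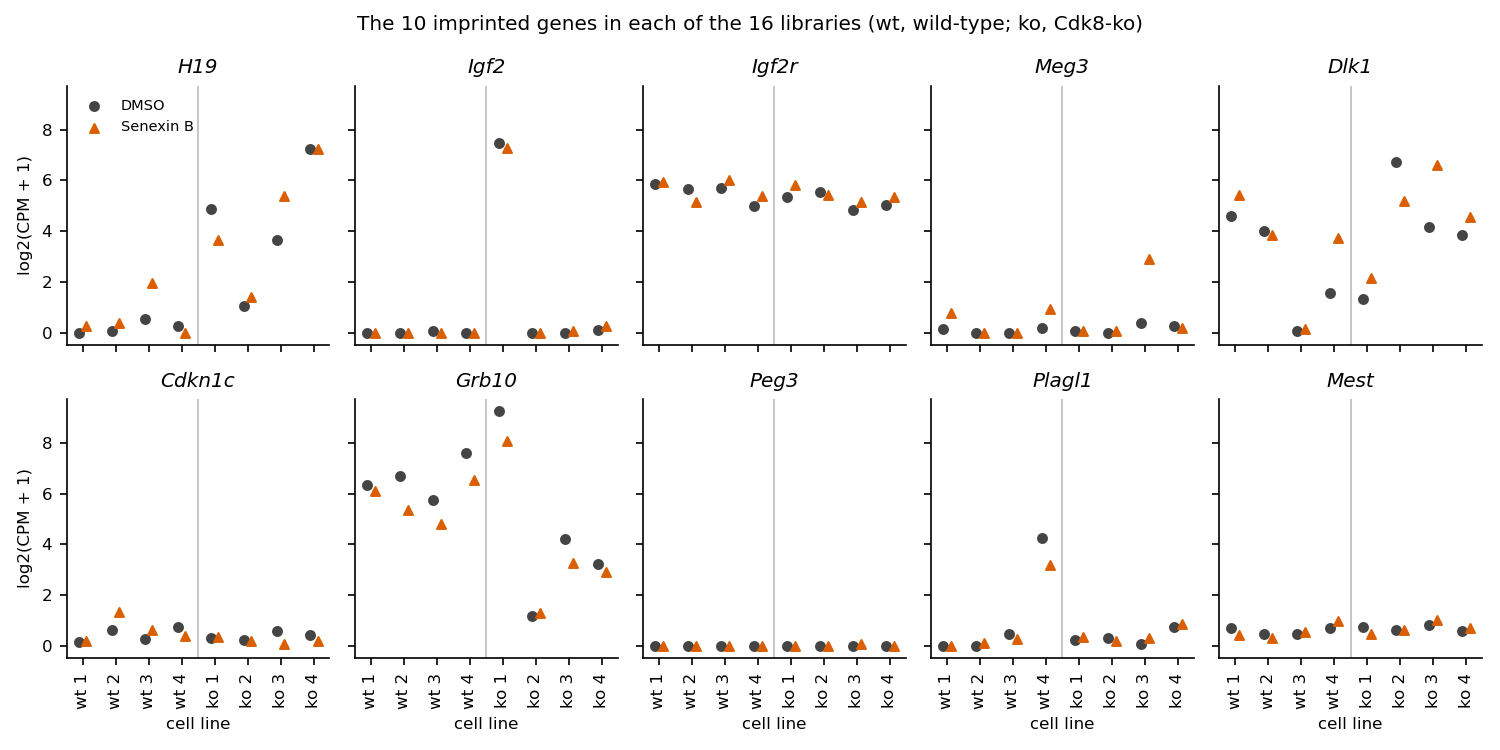
Level of each of the 10 imprinted genes in the 16 libraries, as log2(CPM + 1), with the 4 wild-type lines left of the grey bar and the 4 Cdk8-ko lines right of it. Circles are DMSO and triangles Senexin B libraries of the same line. *H19* was high in 3 Cdk8-ko lines, *Igf2* and *Plagl1* in 1 line each, and *Igf2r* was the evenest of the genes expressed in all lines, at 27.8 to 63.8 CPM.

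*H19* (ENSMUSG00000000031, chr7:142575529-142578143 of GRCm38, minus strand, 2372 exon bases) encodes a long noncoding RNA made from the maternal chromosome, abundant in fetal tissue and low in most adult tissue. In wild-type lines 1 to 4 with DMSO its counts were 0, 1, 9 and 3, or 0, 0.0629, 0.482 and 0.210 CPM. A count of 0 in the first of them allows a level of up to 0.173 CPM. In Cdk8-ko lines 1 to 4 with DMSO the counts were 454, 17, 183 and 2033, or 28.3, 1.06, 11.6 and 149.5 CPM. Every Cdk8-ko line with DMSO was thus above every wild-type line, but the Cdk8-ko lines spanned a range far wider than the gap between genotypes, and line 2 sat just above the wild-type lines. The group means were 0.189 ± 0.215 CPM and 47.6 ± 68.9 CPM (SD, n = 4 each). With Senexin B the wild-type lines had 0.216, 0.327, 2.89 and 0 CPM, and the Cdk8-ko lines 11.7, 1.65, 40.4 and 148.4 CPM. The genotypes then overlapped, since wild-type line 3 at 54 counts lay above Cdk8-ko line 2 at 24 counts. Because these are bulk libraries, fewer cells with the RNA and less RNA per cell cannot be told apart, in these lines or for any gene below.

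The *H19* level differed more between lines than between the libraries of a line. Cdk8-ko line 4 was the highest with DMSO and with Senexin B, at 2033 and 2133 counts. Senexin B libraries were higher in 5 lines and lower in 3, with no common direction in either genotype. In Cdk8-ko line 1 the level with Senexin B was 0.412 times that with DMSO, and in Cdk8-ko line 3 it was 3.48 times that with DMSO. The standard deviation of line means on the log2(CPM + 1) scale was 2.64, against a mean absolute change within a line of 0.695 and a median of 0.34. These are unlike measures, and the first holds the genotype difference by which *H19* was chosen. Wild-type lines 1, 2 and 4, at 0 to 4 counts, can change little on this scale, which lowers the median. The change within a line was 1.39 in wild-type line 3, -1.21 in Cdk8-ko line 1 and 1.71 in Cdk8-ko line 3. It was -0.0104 in Cdk8-ko line 4, the line with the most counts, and -0.275 to 0.359 in the remaining lines.

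An exon of *H19* holds the precursor of miR-675, and an intronic miRNA precursor, miR-483, lies in *Igf2*. Both precursor genes had 0 counts in all 16 libraries, which were prepared for mRNA and are not made to capture mature miRNAs. All 84 exon bases of the miR-675 precursor lie in the *H19* exon on the same strand, so reads of these genes cannot be told apart and its 0 counts say nothing of the RNA. Their mature forms are shown because they are the small RNA products of the 2 loci whose host transcripts had the largest standard deviations between line means, 2.64 for *H19* and 2.60 for *Igf2* on the log2(CPM + 1) scale. All 4 matched entries come from RefSeq (GRCm38.p6, chromosome 7, minus strand), at chr7:142577112-142577133 and chr7:142577078-142577099 for miR-675 and at chr7:142654968-142654989 and chr7:142654932-142654952 for miR-483. Capitals mark the seed, bases 2 to 8, and no 2 of the 4 seeds are the same.
mmu-miR-675-5p: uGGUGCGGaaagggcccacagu
mmu-miR-675-3p: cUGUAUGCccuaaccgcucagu
mmu-miR-483-5p: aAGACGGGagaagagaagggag
mmu-miR-483-3p: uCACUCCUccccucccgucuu

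*Igf2* (ENSMUSG00000048583, chr7:142650766-142666816) encodes a fetal growth factor made from the paternal chromosome, and lies 72622 bases from *H19*, with which it competes for the same enhancers under a control region bound by CTCF. Its RNA was found in 1 line. Cdk8-ko line 1 had 2848 counts with DMSO and 2680 with Senexin B, or 177.4 and 153.8 CPM. The other 14 libraries had 0 to 3 counts each, and 10 of them had 0. Cdk8-ko line 1 thus held both transcripts of the pair, while Cdk8-ko line 4, which had the most *H19*, had 1 and 3 counts of *Igf2*. The stem cell list, carried by *Kit*, summed in Cdk8-ko line 1 to 22.5 CPM with DMSO and 14.2 CPM with Senexin B. These sums were above every line but Cdk8-ko line 2. Any link to the *Igf2* level of Cdk8-ko line 1 was not tested. Cdk8-ko line 1 with DMSO also had the highest sum of myeloid markers, 24.7 CPM, and 7.92 CPM with Senexin B. Of the 7 markers 1, *Lyz2*, was over the floor there and gave 24.6 CPM of the sum, while *Mpo*, *Csf1r* and *Ly6g* were detected in no line and *Elane* and *S100a8* had 0 counts in every library. The antisense transcript *Igf2os*, named after its values were seen, followed *Igf2* with 94 and 90 counts in Cdk8-ko line 1, 2 counts in 1 library of Cdk8-ko line 4 and 0 elsewhere. It shares 98 exon bases with *Igf2*, 1.71% of the latter, and the counts do not use strand.

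The other genes around *H19*, a list of 10 with *Igf2*, included genes that were high in the same lines. *Tnni2*, which encodes a troponin of fast skeletal muscle, had 33.7, 2.19, 20.4 and 54.6 CPM in Cdk8-ko lines 1 to 4 with DMSO and 3.35, 2.14, 4.23 and 8.11 CPM in the wild-type lines. Lines 1, 3 and 4 of the Cdk8-ko genotype were therefore high and line 2 lay within the wild-type range, the order of the Cdk8-ko lines seen for *H19*. *Lsp1*, a leukocyte actin-binding protein, had 293.9, 28.0, 199.1 and 362.5 CPM in the Cdk8-ko lines with DMSO and 77.0 to 125.0 CPM in the wild-type lines, so Cdk8-ko line 2 was the lowest of all 8. *Tnnt3*, another fast muscle troponin, was expressed in Cdk8-ko lines 3 and 4 only, at 1.59 and 1.54 CPM with DMSO and 6.61 and 3.55 CPM with Senexin B. The pattern did not follow distance. *Mrpl23*, a mitochondrial ribosomal protein gene and the closest of these to *H19*, lay between 2.39 and 10.8 CPM over all libraries, and the protease gene *Ctsd*, the farthest on that side, between 24.5 and 65.9 CPM, with both genotypes overlapping. *Syt8*, *Ins2*, *Th* and *Ascl2* had 2 counts or fewer in every library.

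**Figure D2:**
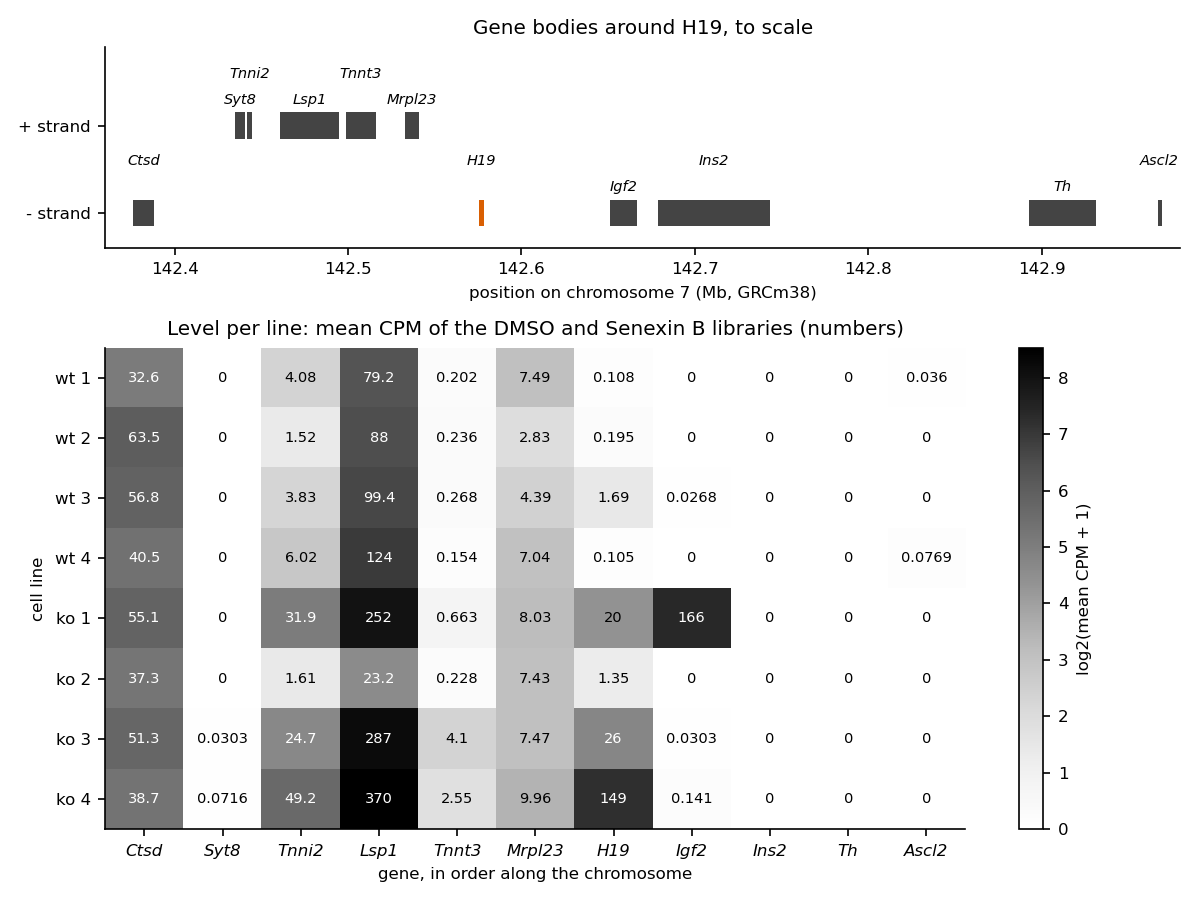
Top, gene bodies around *H19* on chromosome 7, drawn to scale by strand, with *H19* in orange. Bottom, level of each gene in each line as mean CPM of its DMSO and Senexin B libraries, with grey shade on the log2(CPM + 1) scale. *Tnni2* and *Lsp1* are high in Cdk8-ko lines 1, 3 and 4, as *H19* is, and *Igf2* in Cdk8-ko line 1.

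As a description over the 8 line means of log2(CPM + 1), Pearson's r with *H19* was 0.909 for *Tnni2*, rank 9 among 14164 genes. It was 0.858 for *Tnnt3* (rank 31), 0.749 for *Lsp1* (rank 159), 0.590 for *Mrpl23* (rank 694) and 0.0319 for *Ctsd* (rank 6579). The points are lines that also differ in genotype, and *H19* was chosen by that difference, so no p is given. The 5 genes with the highest r were *Mbtps1* (0.944), *Sptan1* (0.936), *Sec23ip* (0.918), *Zfat* (0.915) and *Vangl2* (0.913). The level of *Mbtps1*, a protease of the Golgi, ran from 76.8 to 119.0 CPM over the libraries. That of *Vangl2*, a planar cell polarity protein, ran from 20.3 to 59.3 CPM. The 5 most negative were *Gstm1* (-0.959), *Mtmr10* (-0.946), *Smg9* (-0.940), *Inafm1* (-0.933) and *Fam222a* (-0.922). Of these *Mtmr10*, a myotubularin-related protein, had 4.17 to 10.7 CPM in wild-type lines and 0 counts in both libraries of Cdk8-ko line 4. The other imprinted genes that passed the filter lay between these ends, from 0.301 for *Mest* to -0.464 for *Igf2r*.

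*Igf2r* (ENSMUSG00000023830) encodes the maternally expressed receptor that binds IGF2 and mannose 6-phosphate and carries the growth factor to lysosomes. With DMSO it had 57.1, 49.7, 51.2 and 30.7 CPM in wild-type lines 1 to 4 and 39.4, 45.5, 27.8 and 32.1 CPM in Cdk8-ko lines 1 to 4. With Senexin B these were 59.6, 35.0, 63.8 and 41.2 CPM and 55.6, 41.8, 34.9 and 40.2 CPM. The genotypes overlapped with both treatments, and the line spread of 0.32 on the log2(CPM + 1) scale was about the median change within a line, also 0.32. *Airn*, the paternally expressed antisense RNA that silences the paternal *Igf2r* copy, was named after its values were seen. It had 0 counts in both libraries of wild-type line 4 and 0.311 and 0.230 CPM in Cdk8-ko line 1, against 1.38 to 10.1 CPM in the other 12 libraries. The *Igf2r* level of those 2 lines lay within the range of the others.

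*Dlk1* (ENSMUSG00000040856, chr12:109452823-109463336) and *Meg3* (ENSMUSG00000021268) lie in 1 imprinted cluster, 77664 bases apart. The former encodes a paternally expressed transmembrane protein of the Notch ligand family that restrains differentiation, and the latter a maternally expressed noncoding RNA. *Dlk1* had 23.3, 15.2, 0.0536 and 1.96 CPM in wild-type lines 1 to 4 with DMSO and 1.5, 105.6, 16.8 and 13.5 CPM in the Cdk8-ko lines. With Senexin B the wild-type lines had 41.6, 13.6, 0.107 and 12.3 CPM and the Cdk8-ko lines 3.44, 35.3, 96.9 and 22.8 CPM. Both genotypes held high and low lines, and wild-type line 3, with 1 and 2 counts, was the only line in which it was not detected. *Meg3* was nearly silent, at 0 to 12 counts in 15 libraries. The exception was Cdk8-ko line 3 with Senexin B, which had 106 counts (6.43 CPM) against 5 counts with DMSO in the same line. The noncoding RNAs *Rian* and *Mirg* of the same cluster, named after their values were seen, also had their highest count in that library, 64 and 15 counts. *Dlk1* had 1599 counts there against 265 with DMSO, below the 1689 counts of Cdk8-ko line 2 with DMSO. At far lower counts, *Meg3* was also higher with Senexin B in wild-type lines 1 (2 and 10 counts) and 4 (2 and 12 counts), and so was *Rian* (0 and 6 counts, 0 and 8 counts).

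*Grb10* (ENSMUSG00000020176, chr11:11930508-12038683) encodes an adaptor that dampens signalling from the insulin and IGF receptors and is maternally expressed outside the brain. With DMSO it had 78.9, 101.7, 52.8 and 194.1 CPM in wild-type lines 1 to 4 and 609.0, 1.25, 17.6 and 8.38 CPM in Cdk8-ko lines 1 to 4. With Senexin B the wild-type lines had 68.4, 40.1, 27.3 and 92.6 CPM and the Cdk8-ko lines 266.7, 1.44, 8.61 and 6.47 CPM. Cdk8-ko line 1 was thus above every wild-type line with either treatment, and the other 3 Cdk8-ko lines were below every wild-type line. The means of the 2 genotypes with DMSO, 106.9 ± 61.5 and 159.1 ± 300.0 CPM (SD, n = 4 each), do not show this. *Ddc*, the aromatic amino acid decarboxylase gene 32363 bases away and imprinted in the heart, was named after its values were seen. It was lowest in Cdk8-ko line 2 as well, at 2 counts and 1 count, and reached 14.0 CPM in Cdk8-ko line 1 and 13.6 CPM in wild-type line 4 with DMSO.

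*Plagl1*, a paternally expressed zinc finger transcription factor that restrains growth, was expressed in 1 line. Wild-type line 4 had 260 counts (18.2 CPM) with DMSO and 105 counts (8.07 CPM) with Senexin B, and the other 14 libraries had 0 to 12 counts. It was also detected, below 1 CPM, in wild-type line 3 (7 and 4 counts) and in Cdk8-ko line 4 (9 and 12 counts). *Cdkn1c*, the maternally expressed CDK inhibitor that holds hematopoietic stem cells in quiescence, had 1 to 19 counts per library and at most 1.55 CPM. *Mest*, a paternally expressed member of the hydrolase fold family, had 3 to 17 counts and at most 1.03 CPM. *Mest* shares 912 exon bases, 23.1% of its length, with *Copg2* on the opposite strand, and *Cdkn1c* shares 625, 30.7%, with the predicted gene *Gm44732*, so their low counts are uncertain where strand is not used. *Peg3*, a paternally expressed zinc finger gene, had 1 count over all libraries. At this depth low expression of these genes below the floor could not be detected.

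Compared per kilobase of exon over the 16 libraries, mean levels were 10.8 CPM per kb for *Grb10*, 10.5 for *H19*, 4.67 for *Igf2r*, 4.46 for *Dlk1* and 3.62 for *Igf2*. The remaining 5 lay at 0.237 or below. The highest line values were 48.2 CPM per kb of *Grb10* in Cdk8-ko line 1, 62.8 of *H19* in Cdk8-ko line 4, 12.5 of *Dlk1* in Cdk8-ko line 2 and 28.9 of *Igf2* in Cdk8-ko line 1. The line values of neighbours in this order overlapped, so the order does not hold beyond the spread between lines. No common pattern across lines was seen. Over the 8 line means the 10 pairs among the 5 members other than *H19* that passed the filter had Pearson's r from -0.671 to 0.509 and Spearman's rho from -0.738 to 0.405. *Plagl1* was expressed in 1 line and *Mest* in none, so pairs with either say little of a common pattern. Among the others, r was -0.384 for *Igf2r* and *Dlk1*, 0.278 for *Igf2r* and *Grb10* and -0.605 for *Dlk1* and *Grb10*. In exact permutation tests, p was under 0.05 for 0 of the 10 by Pearson's r and for 1 by Spearman's rho. That pair was *Igf2r* and *Mest* (rho = -0.738, exact p = 0.0458, r = -0.671, exact p = 0.0666), at *Mest* counts of 17 or fewer, and r was -0.531 without the 2 lines farthest from the median of *Igf2r*.

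Between genotypes, edgeR's quasi-likelihood test with Benjamini-Hochberg adjustment over all genes was used, with calls at an adjusted p under 0.05 and a fold change above 2. With DMSO it called 1 of 13174 genes (0.00759%) and none of the 4 members tested beside *H19*. The called gene, *Sva*, named after its values were seen, had 0 counts in all wild-type lines and 79 to 96 counts in the Cdk8-ko lines with DMSO. At an unadjusted p under 0.05 there were 701 genes and DESeq2 called 32 genes, in both cases with none of these 4, although DESeq2 gave no p for *Grb10*. With Senexin B edgeR called 0 of 13010 genes (0%) and none of the 3 members tested beside *H19*, with 202 genes at an unadjusted p under 0.05 and 10 called by DESeq2, again with none of these 3. The fitted log2 fold changes of *H19* (Cdk8-ko over wild-type) were 7.89 with DMSO and 5.78 with Senexin B. The groups of *H19* did not overlap with DMSO, where 3.14% of tested genes did not overlap in either direction and 1.48% with the Cdk8-ko lines higher. With Senexin B no tested member was without overlap, and 0.999% of all genes were (0.546% with the Cdk8-ko lines higher). *H19* was chosen by this contrast, and nothing is read from its count.

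Between genotypes, the difference passed the test for none of the members tested. The log2 fold changes with DMSO were 1.77 (SE 1.47) for *Dlk1*, 0.57 (SE 1.49) for *Grb10*, -0.38 (SE 0.23) for *Igf2r* and 0.33 (SE 0.32) for *Mest*. That of *Grb10* rested on Cdk8-ko line 1 and was -3.55 without it, in a fit of 3 lines against 4. In the 9 members other than *H19*, exact two-sided permutation of log2(CPM + 1) with 4 lines against 4 gave no p under 0.05 in 18 tests. The smallest that this design allows is 0.0286, but the 4 tests of *Igf2* and *Peg3*, with most libraries at 0 counts, could not go below 0.05, which leaves 14. The smallest found was exact p = 0.0571, for *Cdkn1c* with Senexin B, where the counts were 1 to 5 in Cdk8-ko lines and 2 to 19 in wild-type lines. Its log2 fold change without the filter was -1.94 (SE 0.78, unadjusted p = 0.0269 and adjusted p = 0.878 in edgeR), and in DESeq2 it was -1.99 (SE 0.98, unadjusted p = 0.0418 and adjusted p = 1.00). *Igf2*, found in Cdk8-ko line 1 alone, had an unadjusted p of 0.0373 and an adjusted p of 0.745 in edgeR with DMSO without the filter.

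With Senexin B, *Grb10* was the member with the most lines in 1 direction. It was lower with the inhibitor in 7 of 8 lines, and Cdk8-ko line 2, where the gene was at 20 and 21 counts, was the exception. In 5 lines the level was 0.394 to 0.516 times that with DMSO, in wild-type lines 2, 3 and 4 and Cdk8-ko lines 1 and 3. The remaining 2 were wild-type line 1 (0.867 times) and Cdk8-ko line 4 (0.772 times). The mean change on the log2(CPM + 1) scale was -0.73, with a two-sided exact sign flip p = 0.0156 over the 8 lines, where the smallest possible is 0.00781. It was the only one with p under 0.05 among the 8 members whose test could reach that, which those of *Igf2* and *Peg3* could not. Among all 14164 genes tested, 16.7% changed in the same direction in at least 7 of 8 lines, so the count of lines does not set *Grb10* apart.

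**Figure D3:**
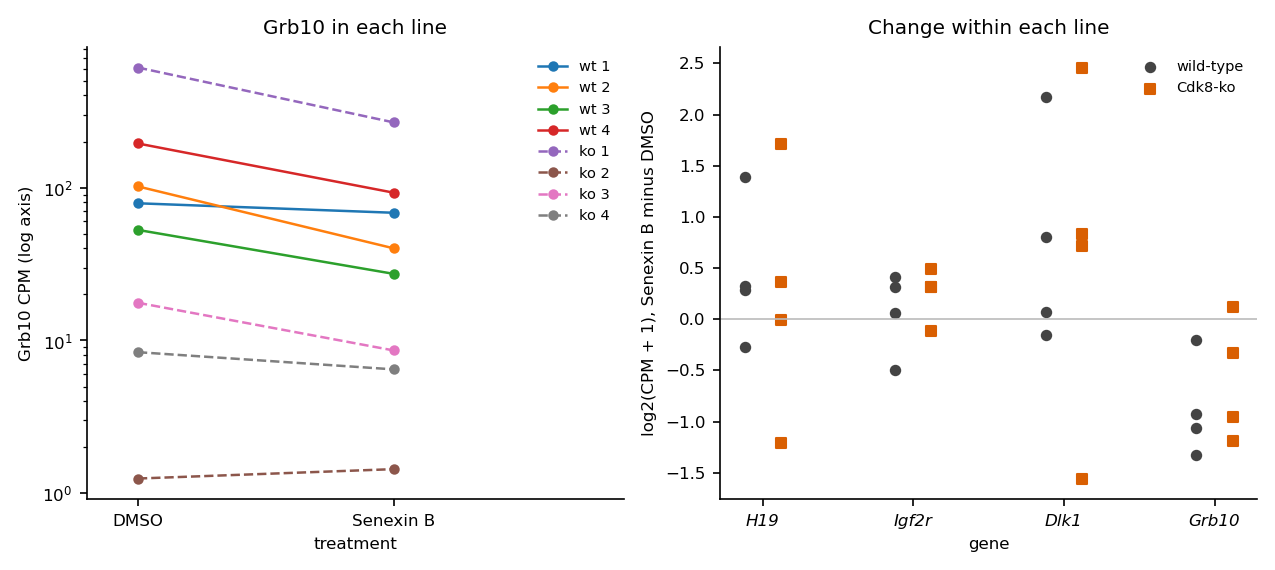
Left, *Grb10* CPM on a log axis in each line with DMSO and with Senexin B, wild-type lines as full and Cdk8-ko lines as broken lines. Right, change within each line on the log2(CPM + 1) scale for the 4 members expressed in 4 or more lines, with wild-type lines as circles and Cdk8-ko lines as squares. *Grb10* was lower with Senexin B in 7 of 8 lines, and the other 3 genes had changes in both directions.

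With the filter and all lines, the fits of Senexin B against DMSO called no member. Without the line as a block, edgeR called 0 of 12989 genes in wild-type lines (0%), 0 of 13285 in Cdk8-ko lines (0%), 0 of 14164 over both genotypes (0%) and 0 of 14164 for the interaction of genotype and inhibitor (0%). At an unadjusted p under 0.05 there were 493, 243, 688 and 67 genes, with no member among them, and DESeq2 called 19, 0, 17 and 0 genes, also with no member. DESeq2 gave no p, however, for *Grb10* and *Igf2* in Cdk8-ko lines, over both genotypes and for the interaction. It also gave none for *Plagl1* in wild-type lines, over both genotypes and for the interaction, and none for *Meg3* in Cdk8-ko lines. These are therefore not results. Both treatments were applied to the same lines, and with the line as a replicate block edgeR called 45 genes in wild-type lines (0.346%), 7 in Cdk8-ko lines (0.0527%) and 134 over both (0.946%), again with no member. The log2 fold change of *Grb10* over both genotypes was -1.04 (SE 1.06) without the block and -0.83 (SE 0.15) with it. The first of these was 0.70 without the DMSO library of Cdk8-ko line 1. Its adjusted p in the blocked edgeR fit was 0.0143, under 0.05 as for 373 of 14164 genes (2.63%), but its size was below the 2-fold limit. Leaving out each line in turn, an alternative chosen after seeing the data, gave -0.94 to -0.76 and an adjusted p of 0.00863 to 0.0530, with the highest without wild-type line 3. In wild-type lines alone the blocked value was -0.88 (SE 0.20, adjusted p = 0.150 in edgeR) and in Cdk8-ko lines -0.80 (SE 0.20, adjusted p = 0.257 in edgeR). The interaction was -0.26 without the block and 0.13 with it, and neither passed the test.

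*Meg3*, at or below the floor in most libraries, did not pass the filter over all 16 libraries, and its call depended on the filter and on 1 line. With the line as a block and no filter, an alternative chosen after seeing the data, edgeR called it with Senexin B over both genotypes at a log2 fold change of 2.68 (SE 0.54, adjusted p = 0.00137), among 185 of 29942 genes (0.618%). Without Cdk8-ko line 3, the line with 106 counts, the same fit gave 1.56 (SE 0.73, adjusted p = 0.575 in edgeR) and no call, and without any other line it gave 2.66 to 3.19 and a call each time. The number of genes called in these fits ran from 121 of 29626, without wild-type line 2, to 414 of 29562, without Cdk8-ko line 1. With the filter and the block it passed in 5 of the 8 fits that left out a line, not in that without Cdk8-ko line 3. It was called in 2 of these 5, at 2.90 without Cdk8-ko line 1 (SE 0.63, adjusted p = 0.0414 in edgeR, 1.25% of genes called) and 3.21 without Cdk8-ko line 4 (SE 0.54, adjusted p = 0.0266 in edgeR, 0.790% called), with an adjusted p of 0.0693 to 0.104 in the other 3. Without block and filter it was 3.09 (unadjusted p = 0.0212 and adjusted p = 0.818 in edgeR) and in DESeq2 3.12 (unadjusted p = 0.00875 and adjusted p = 0.583). DESeq2 with the block gave an unadjusted p of 0.0195 and no adjusted p. Its level was higher with Senexin B in 4 lines, lower in 2 and at 0 counts throughout in wild-type lines 2 and 3, and the exact sign flip p was 0.188.

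Of the remaining members, none had the same direction with Senexin B in all lines. *Dlk1* was higher in 6 lines and lower in 2, from a ratio of 6.28 in wild-type line 4 to 0.334 in Cdk8-ko line 2. Its blocked log2 fold change was 1.00 (SE 0.45) in wild-type and 0.68 (SE 0.64) in Cdk8-ko lines. Without the block these were 0.75 (SE 1.49) and 0.20 (SE 1.23). *Igf2r* was also higher in 6 lines, at ratios of 0.704 to 1.41. *H19* had a log2 fold change of 0.09 (SE 1.47) in Cdk8-ko lines without the block. Over both genotypes it was called in 1 of the blocked fits, that without the filter and without Cdk8-ko line 1, at 1.08 (SE 0.20, adjusted p = 5.08e-06 in edgeR, 1.4% of genes called). With all lines that fit gave 0.55 (adjusted p = 0.882 in edgeR), and with the filter and without Cdk8-ko line 1 it gave 1.09 (SE 0.38, adjusted p = 0.167 in edgeR). Changes in the same direction in 4 of 4 lines were seen for 17.8% of genes in the wild-type and 19.2% in the Cdk8-ko lines, and in 8 of 8 for 4.55%. Among tested members, *Grb10* was the 1 with such a change in the wild-type lines, and there was none in the Cdk8-ko lines or in all 8.

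Most other imprinted genes were expressed in all lines or in none. Of 53 further genes, 17 were expressed in all lines, 3 in some and 33 in none. The most abundant per kilobase of exon were *Cd81*, a tetraspanin of the B-cell coreceptor (69.1 CPM per kb), the histone chaperone gene *Nap1l4* (67.3) and the signal peptide peptidase gene *H13* (22.1). Of the 19 genes tested in every comparison, none was called, with a median log2 fold change of -0.02 between genotypes with DMSO (all genes 0.00) and -0.04 with Senexin B over both genotypes (all genes 0.01). *Cd81* had a log2 fold change of -0.35 (SE 0.14) with Senexin B in wild-type lines, which did not pass the edgeR test (adjusted p = 1.00).

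The machinery that keeps imprints was expressed in both genotypes. Of 17 genes for imprint maintenance and DNA methylation, 12 were expressed in all lines, among them the most abundant per kilobase of exon, the corepressor *Trim28* (115.5 CPM per kb), the maintenance methyltransferase *Dnmt1* (67.9) and the insulator factor *Ctcf* (50.3). *Tet1*, which oxidizes methylcytosine, was expressed in 3 lines, and *Ctcfl*, *Zfp57*, *Dnmt3l* and *Dppa3*, known from germ cells and the early embryo, in none. None of the 13 tested was called in any comparison, and the median log2 fold change was -0.02 between genotypes with DMSO (all genes 0.00) and -0.01 with Senexin B over both genotypes (all genes 0.01).

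Of 21 genes of the insulin-like growth factor axis, 4 were expressed in all lines, 5 in some and 12 in none, and none of the 8 tested was called in a comparison (7 with Senexin B in Cdk8-ko lines). The median log2 fold change between genotypes was -0.19 with DMSO and 0.16 with Senexin B. *Igfbp4*, an IGF-binding protein, was most abundant per kilobase of exon over all libraries (14.1 CPM per kb), through the Cdk8-ko lines, since in wild-type lines with DMSO it was at 1.40 CPM per kb and *Irs2*, an adaptor of the insulin and IGF receptors, at 11.3. It had 24.7, 250.3, 164.6 and 20.7 CPM in Cdk8-ko lines 1 to 4 with DMSO and 1.96, 11.6, 10.5 and 0.560 CPM in the wild-type lines. Its groups did not overlap, as for 3.14% of tested genes, and the log2 fold change of 4.22 (SE 1.16) had an adjusted p of 0.897 in edgeR. DESeq2, the method of the paper, gave 4.20 (SE 1.12, adjusted p = 0.0615), also not a call. With Senexin B the groups of *Igfbp4* overlapped, with Cdk8-ko line 1 at 8.21 CPM and wild-type line 3 at 26.7 CPM, and the log2 fold change was 3.09 (SE 1.21, adjusted p = 1.00 in edgeR). The signalling receptor gene *Igf1r* went the other way, at -2.77 with DMSO (SE 1.15, adjusted p = 0.897 in edgeR) and -2.07 (SE 0.95) with Senexin B. With DMSO, DESeq2 gave -2.80 (SE 1.13, unadjusted p = 0.0131 and adjusted p = 0.521). The paper lists this gene among those significantly lower without CDK8, at a looser limit on the adjusted p than used here. *Igf1r* had at most 109 counts in a library, in wild-type line 1 with DMSO (6.29 CPM). The groups overlapped with DMSO, with Cdk8-ko line 3 at 0.825 CPM and wild-type line 2 at 0.314 CPM. The insulin receptor gene *Insr* had 34.7 to 79.6 CPM, *Irs2* 30.5 to 90.7 CPM, and *Igf2bp3*, which binds *Igf2* mRNA, 8.82 and 10.2 CPM in Cdk8-ko line 2 and 44.9 to 87.4 CPM elsewhere. *Insr* had a log2 fold change of -0.49 (SE 0.16) with Senexin B in wild-type lines, with an adjusted p of 1.00 in edgeR. The ligand gene *Igf1*, named after its values were seen, was highest where *Igf2* was, at 52.6 CPM in Cdk8-ko line 1 with DMSO and 13.5 CPM with Senexin B.

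Among the neighbours of *H19*, 3 were expressed in all lines, 3 in some and 4 in none, and none of the 4 or 5 tested was called. The median log2 fold change of the 4 tested between genotypes was 0.88 with DMSO and 0.98 with Senexin B, beside 0.00 for all genes with DMSO. *Tnni2* had the smallest unadjusted p of the list, with a log2 fold change of 2.64 (SE 0.84, adjusted p = 0.897 in edgeR) with DMSO and 2.99 (SE 0.94, adjusted p = 1.00 in edgeR) with Senexin B. *Tnnt3* had 1.55 (SE 0.63, adjusted p = 0.893 in edgeR) with Senexin B over both genotypes. None of these passed the test. Cdk8-ko line 2 was the lowest Cdk8-ko line for *Tnni2* and *Lsp1* with DMSO and with Senexin B.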

How the data were processed

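Gene counts were deposited by the authors for 16 libraries of 50-base single-end reads, made with a SENSE mRNA-Seq kit. Per the file headers and the submitters' processing notes, reads were trimmed with Trimmomatic, mapped to GRCm38 with STAR and counted over exons with featureCounts 1.5.1, without strand. The identifiers were given symbols from the reference (50376 of 50686). No 2 libraries held the same values. From the counts, CPM were computed with TMM factors, and fits were made with edgeR 4.0.16 (filter on low counts by group, robust quasi-likelihood test) in R 4.3.3 after tests on simulated data. DESeq2 1.42.0, RLE factors, no filter, all 16 libraries in one fit, a replicate block and each library left out were alternatives. A pseudocount of 1 CPM was used on log2 scales. The SE beside an edgeR fold change is the absolute log2 fold change divided by the square root of the quasi-likelihood F. It is thus derived from the test and is not a separate estimate. Floors cover counting error only. Between genotypes, p-values measure the spread between lines. In fits with the line as a block and in sign flips they measure the spread of the change within lines. The Senexin B and interaction fits without the block took the 2 libraries of a line as independent, which mixes both spreads.

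The replicate number stands for the line. Deviations from group means over 14164 genes correlated at 0.559 to 0.781 between DMSO and Senexin B libraries of the same number in wild-type and at 0.765 to 0.872 in Cdk8-ko lines, so the numbers pair the treatments.

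The members and lists were chosen with earlier results of these data known. The lists were other imprinted genes, imprint maintenance and DNA methylation, the insulin-like growth factor axis, neighbours of *H19* and cell type markers. Named were all members and neighbours, of each other list the genes called or at an unadjusted p under 0.05 (at most 5) and the 3 most abundant per length, the 5 genes most like *H19* in each sign, and *Cdk8*. *Tet1*, *Ctcfl*, *Zfp57*, *Dnmt3l* and *Dppa3* were named outside this rule, as the imprint maintenance genes not expressed in all lines.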

Additional observations from a re-analysis of the deposited data

Results flagged for a closer look

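Among the 33 sets of 4 libraries in which a member exceeded 3 counts, 9 had 1 library whose distance to its nearest neighbour took up most of the range of its group (Dixon's criterion). The criterion is set to flag about 1 in 20 independent groups of normally distributed values. These were CPM values without a log scale, and a set could enter through its 1 high library. The share flagged over all genes is not given here, so the 9 are a description and are not compared with chance. The DMSO and Senexin B libraries also come from the same lines. *Igf2*, *Grb10* and *Plagl1* each stood out with both treatments in 1 line. In each of the 9 it was the highest library. *Igf2* was highest in Cdk8-ko line 1 with DMSO (177.4 CPM) and with Senexin B (153.8 CPM), and so was *Grb10* (609.0 and 266.7 CPM). *Plagl1* was highest in wild-type line 4 with DMSO (18.2 CPM) and with Senexin B (8.07 CPM). *Dlk1* stood out in Cdk8-ko line 2 with DMSO (105.6 CPM), *Meg3* in Cdk8-ko line 3 with Senexin B (6.43 CPM) and *H19* in wild-type line 3 with Senexin B (2.89 CPM).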

How the results depend on the processing

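Of 466 alternative values of 28 member fold changes, 421 kept their direction and 45 did not, in 15 results. Where a value below changed, the cause was not tested. DESeq2 called 32 genes between genotypes with DMSO, of the members 1 (*H19*, chosen by this contrast, so nothing is read from it), 10 with Senexin B, and 19 in wild-type lines and 17 over both genotypes with the inhibitor. Without the filter 1 gene was called between genotypes with Senexin B and 3 for Senexin B in wild-type lines, and 1 gene with all 16 libraries in one fit between genotypes with Senexin B. With the replicate block 0 genes were called between genotypes with DMSO, 45 for Senexin B in wild-type lines, 7 in Cdk8-ko lines and 134 over both. Replicate numbers do not pair the genotypes (correlations of same-numbered libraries of -0.15 to 0.256 with DMSO and -0.14 to 0.43 with Senexin B). With that block *Grb10* turned to -2.68 (log2) between genotypes with DMSO and -2.28 with Senexin B. The line block turned the *Grb10* interaction to 0.13, *Mest* to -0.00034 over both genotypes and its interaction to 0.0129, as RLE factors (0.0018) and no filter (0.0055) did, and with the filter and all lines it changed no call of a member. Leaving out each library in turn, 0 genes in all were called between genotypes with DMSO and 0 to 5 for Senexin B over both genotypes, with 5 without Cdk8-ko line 1 with Senexin B. Log2 fold changes then ranged as follows. Between genotypes *Grb10* went from -3.55 to 1.03 with DMSO and from -3.36 to 0.73 with Senexin B. For Senexin B in wild-type lines *Igf2r* went from -0.0669 to 0.22 and *Dlk1* from -0.23 to 1.56. In Cdk8-ko lines *H19* went from -1.41 to 1.89, *Dlk1* from -0.75 to 1.91 and *Grb10* from -4.86 to 2.97. Over both genotypes *Grb10* went from -2.52 to 0.70, *Plagl1* from -2.01 to 1.96 and *Mest* from -0.17 to 0.15. For the interaction *H19* went from -3.59 to 0.19, *Dlk1* from -1.48 to 1.17, *Grb10* from -3.94 to 3.87, *Plagl1* from -3.55 to 5.72 and *Mest* from -0.32 to 0.49. With the block, DESeq2, chosen after seeing the data, gave -0.82 for *Grb10* over both genotypes (adjusted p = 3.29e-05). Over both genotypes, blocked fits chosen after seeing the data called 1 member (*Meg3*) without the filter, and with it 1 (*Meg3*) without Cdk8-ko line 1 and without Cdk8-ko line 4. Without the filter and without a line they called 2 without Cdk8-ko line 1 (*Meg3* and *H19*), 0 without Cdk8-ko line 3 and 1 (*Meg3*) without each other line. Over all genes, these fits called from 121 of 29626 (without wild-type line 2) to 414 of 29562 (without Cdk8-ko line 1). Small changes of members at a few counts per library could not be detected at this depth.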
